A study of Mus musculus with 4 samples.

Results

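Complement is a cascade of plasma proteins that marks and lyses cells, together with the receptors and inhibitors on cell surfaces that read or restrain it. 9 of its genes were followed here, picked by name from the 49997 genes counted: C3, Hc, Cfi, C2, C4b, Masp1, Masp2, C3ar1 and Cd55. The set was proposed with the levels of these genes in treated and untreated explants in view, so the treated-to-untreated differences of the 9 are given as a description and without a test.

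The samples were explants of the mouse aorta-gonad-mesonephros region (AGM), the embryonic tissue in which the first definitive blood stem cells form, from C57BL/6J embryos. The labels differ on the age of the embryos, which is E10.5 or E11.5 in the growth protocol and E10.5 only in the series design. All explants were cultured for 48 hours on a membrane filter between medium and gas, in medium with hydrocortisone. The untreated group and the CCCP group had 2 libraries each. CCCP, an uncoupler that dissipates the proton gradient of mitochondria, was present at 5 µM for all 48 hours. No label says whether embryos were pooled or whether replicates came from separate cultures, so the spread between replicates may be technical. The cell type is labelled as embryonic HSCs (haematopoietic stem cells), but the extraction protocol describes whole explants, and the counts are those of a mixed tissue. The 10 mesenchymal marker genes summed to between 3381 and 5791 CPM (counts scaled to library size by TMM), and 10 markers of blood stem and progenitor cells to between 170 and 228 CPM. The libraries held 37360968 to 48827826 counted reads, and the detection floor was set at 3 counts, which is 0.0614 to 0.0803 CPM before TMM scaling. In RNA of a whole explant, fewer cells of a type and less RNA per cell cannot be told apart.

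All routes of complement activation meet at C3, whose cleavage tags surfaces and starts the terminal pathway with C5, the product of Hc. The classical route begins with C1q and its proteases, the lectin route with mannose-binding lectins, ficolins and the proteases of Masp1 and Masp2, and both cut the products of C4b and C2. The liver makes most of the plasma proteins of the cascade, while macrophages, fibroblasts and other mesenchymal cells make some of them locally. The members were therefore ordered by where their products are mainly known to be made: C3, Hc, Cfi, C2 and Masp2 as proteins of liver and plasma, C4b and Masp1 as plasma proteins that mesenchyme makes as well, and C3ar1 and Cd55 as proteins of the cell surface.

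Promoter windows, from 250 bases before to 50 bases after the RefSeq gene start on GRCm38.p6 (the assembly behind mm10), were found for 5 of the 9 members, and 3 are shown. They are the windows of C3 and Hc, the most counted liver member and the one nearly absent with CCCP, and of C3ar1, whose level overlapped between the groups. Capitals mark matches to 5 motifs, each searched on both strands. The TATA box was searched as its core letters TATAAA. HNF1, a liver transcription factor, was searched by its half-site GTTAAT, and C/EBP, a factor of liver and myeloid cells, by TTGCNNAA. The half-site of nuclear receptors was AGGTCA, and the CCAAT box was searched as spelled. No match overlapped another.
C3, chr17:57228087-57228386, minus strand: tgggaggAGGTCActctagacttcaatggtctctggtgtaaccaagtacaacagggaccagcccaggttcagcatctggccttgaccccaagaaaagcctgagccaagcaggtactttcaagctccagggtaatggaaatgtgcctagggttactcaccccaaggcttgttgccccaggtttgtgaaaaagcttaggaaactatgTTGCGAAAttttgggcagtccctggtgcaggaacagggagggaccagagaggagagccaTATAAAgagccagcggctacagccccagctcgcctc
Hc, chr2:35061363-35061662, minus strand: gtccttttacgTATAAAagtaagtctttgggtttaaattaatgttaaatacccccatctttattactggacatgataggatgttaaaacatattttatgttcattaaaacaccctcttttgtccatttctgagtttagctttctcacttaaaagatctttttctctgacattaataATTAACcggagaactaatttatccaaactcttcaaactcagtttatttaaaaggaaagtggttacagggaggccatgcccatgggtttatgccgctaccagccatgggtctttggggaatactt
C3ar1, chr6:122856108-122856407, minus strand: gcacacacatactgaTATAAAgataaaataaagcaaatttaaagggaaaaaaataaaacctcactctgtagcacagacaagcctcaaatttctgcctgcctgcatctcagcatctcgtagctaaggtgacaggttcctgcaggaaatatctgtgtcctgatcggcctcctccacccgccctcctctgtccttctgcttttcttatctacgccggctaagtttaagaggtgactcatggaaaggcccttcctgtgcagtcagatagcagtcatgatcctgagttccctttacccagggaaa
The C3 window held a C/EBP match 45 bases before the start, an AGGTCA match 243 bases before it and a TATAAA match at 14 bases after it. The Hc window lies at a start inside the longer span that the files give for the gene. It held ATTAAC, the HNF1 half-site read on the other strand, 74 bases before the start, and a TATAAA match 239 bases before it. The C3ar1 window held only a TATAAA match, 235 bases before the start. The Cd55 window also held an HNF1 half-site, and the Masp2 window none of the 5 motifs. Like that of Hc, these windows lie at starts inside the longer spans that the files give for Cd55 and Masp2. Among 32851 RefSeq windows of the same length, 10.8% held the C/EBP motif, 7.1% the HNF1 half-site, 16.3% the nuclear receptor half-site, 13.6% the TATA box and 37.4% the CCAAT box. These are matches of letters and not known sites.

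C3 (chromosome 17, 57203967 to 57228136, mm10), the component on which all routes converge, was counted 2510 and 968 times in untreated replicates 1 and 2, and 65 and 61 times in CCCP replicates 1 and 2. This corresponds to 50.1 and 25.9 CPM without CCCP and 1.34 and 1.68 CPM with it. Both CCCP libraries were far below both untreated libraries, which themselves differed 1.94-fold. The means were 38.0 ± 17.1 and 1.51 ± 0.242 CPM (SD, n = 2), and the fitted log2 fold change was -4.66 (SE, standard error, 0.385). The summed counts were 26.8-fold higher in untreated explants, with an exact 95% interval of 22.4 to 32.2 that covers counting error only.

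Cfi (chromosome 3, 129836727 to 129875332) encodes factor I, the protease that cuts and so inactivates C3b and C4b. It stood at 10.9 and 6.01 CPM without CCCP and at 0.309 and 0.331 CPM with it, the latter on 15 and 12 counts. Both CCCP libraries again lay below both untreated ones, with a fitted log2 fold change of -4.72 (SE 0.432). Cfi lies across Gm36180, a predicted gene of the opposite strand, but their exons share no bases. Per length of exon, the level of C3 was 1.84 and 1.73 times that of Cfi in the untreated libraries and 1.74 and 2.04 times in the CCCP libraries. The ratio of substrate to protease thus ran from 1.73 to 2.04 over the 4 libraries, while their group means differed 25.2-fold for C3 and 26.4-fold for Cfi. With 15 and 12 counts of Cfi, the ratio in the CCCP libraries is imprecise, and no interval was computed for it.

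Hc (chromosome 2, 34983329 to 35068506), the gene of C5, the first component of the terminal pathway, had 280 and 110 counts in the untreated libraries, or 5.59 and 2.94 CPM. In the CCCP libraries it had 2 and 0 counts, both under the floor of 3. The ratio of summed counts, untreated over CCCP, was 189, with an exact 95% interval of 52.0 to 1567. Its size is known only within wide limits, and the interval covers counting error only. Masp2 (chromosome 4, 148594622 to 148615499), the protease that starts the lectin route by cutting C4 and C2, had 59 and 35 counts without CCCP and 10 in each library with it. Its 1.18 and 0.935 CPM lay above 0.206 and 0.275 CPM, with no overlap and a log2 fold change of -2.13 (SE 0.530). The ratio of summed counts of Masp2 was 4.56 (exact 95% interval 2.79 to 7.80, counting error only). Of the exon bases of Masp2, 52.2% lie in exons of Tardbp, a gene on the other strand with 351 to 463 CPM. Reads that touch both genes were not counted, so the level of Masp2 is uncertain.

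C2 (chromosome 17, 34862602 to 34882100) encodes the protease part of the convertase of the classical and lectin routes. It stood apart from the other members of the liver group, at 4.57 and 3.15 CPM without CCCP and 2.39 and 2.98 CPM with it. Its groups did not overlap, but untreated replicate 2 and CCCP replicate 2 were close, and the fitted log2 fold change was -0.53 (SE 0.326). In GENCODE, 58% of the 50-base stretches of its longest coding transcript also occur in the gene model Gm20547, which is not among the genes counted. Leaving out untreated replicate 1 gave -0.23, and leaving out untreated replicate 2 gave -0.74. The group means of C2 differed 1.44-fold, against 4.39-fold for Masp2, the next smallest of the 5.

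**Figure D1:**
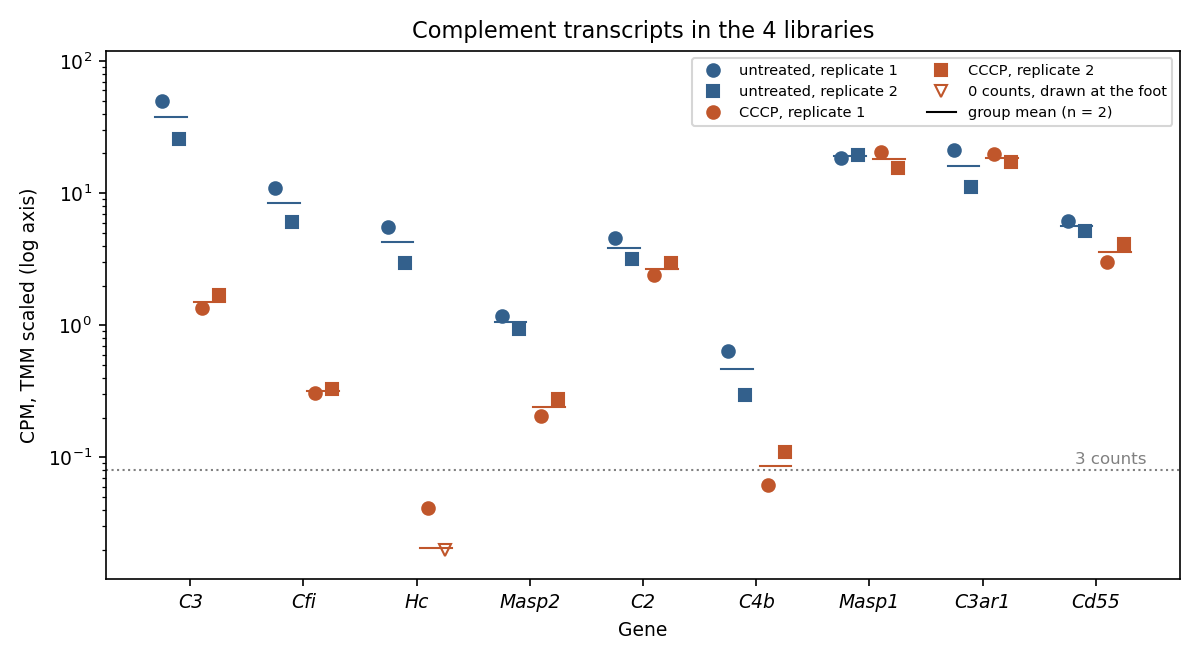
Level of each of the 9 complement genes in the 4 libraries, in CPM with TMM scaling on a log axis; circles are replicate 1, squares replicate 2, short bars the group means (n = 2), and the dotted line marks 3 counts in the shallowest library. C3, Cfi, Hc, Masp2 and C4b lie well below the untreated libraries in both CCCP libraries, C2 and Cd55 slightly below, and Masp1 and C3ar1 overlap.

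The members placed in the mesenchymal group were unlike each other. Masp1 (chromosome 16, 23451785 to 23521240), whose transcripts encode the lectin-route protease MASP-1 and, by alternative splicing, MASP-3, was read at 18.4 and 19.6 CPM without CCCP and at 20.7 and 15.6 CPM with it. The CCCP libraries enclosed the untreated ones, and the log2 fold change was -0.07 (SE 0.193). Its sign depended on the library: it was 0.13 without CCCP replicate 2 and -0.28 without CCCP replicate 1. Counts are summed per gene, so the splice forms of Masp1 were not told apart. C4b (chromosome 17, 34728139 to 34743902), the fourth component, had 32 and 11 counts without CCCP and 3 and 4 with it. That is 0.639 and 0.294 CPM against 0.0618 and 0.110 CPM, with no overlap between the groups and a log2 fold change of -2.45 (SE 0.800). The ratio of summed counts of C4b was 5.96 (exact 95% interval 2.66 to 15.7, counting error only). C4b had the lowest untreated level of the members, its CCCP counts were at or near the floor, and its log2 fold change was -1.76 without untreated replicate 1.

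C3ar1 (chromosome 6, 122847140 to 122856157), the receptor for the C3a fragment and best known on myeloid cells, was read at 21.1 and 11.2 CPM without CCCP and at 19.9 and 17.2 CPM with it. The untreated libraries enclosed both CCCP libraries. The log2 fold change was 0.20 (SE 0.307), which became 0.73 when untreated replicate 1 was left out and -0.15 when untreated replicate 2 was. Cd55 (chromosome 1, 130429798 to 130465009), decay-accelerating factor, a membrane-anchored inhibitor of the C3 convertases, had 6.13 and 5.21 CPM without CCCP and 3.03 and 4.10 CPM with it. Both CCCP libraries were below both untreated libraries, with a log2 fold change of -0.67 (SE 0.282). For Cd55, 13.3% of the 50-base stretches of its longest coding transcript also occur in its paralog Cd55b, which had 0 counts in every library, and 10.1% of its exon bases lie in exons of Cd55os on the other strand.

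The CCCP libraries thus lay below both untreated libraries for 7 of the 9 members and above for none, where 24.8% of the 19837 genes tested lay below and 24.0% above. The fitted log2 fold change was -2 or lower for 5 members, C3, Hc, Cfi, Masp2 and C4b, against 1.24% of genes tested. Both counts follow from how the set was chosen. The median log2 fold change was -2.13 over the members and -0.01 over all genes tested. All 9 members passed the filter on low counts. Hc and C4b did so only through the untreated libraries, so that those 2 could enter only with a higher untreated level. Masp2 also needed an untreated library to pass, since its CCCP levels of 0.206 and 0.275 CPM lay on either side of the filter level of 0.233 CPM.

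The order of the members by level per length (RPKM, the CPM divided by kilobases of exon) differed between the groups. In untreated explants it ran from C3 (7.29 ± 3.29 RPKM; SD, n = 2) over Cfi (4.05 ± 1.65), C3ar1 (3.76 ± 1.62), Masp1 (2.87 ± 0.126) and C2 (1.46 ± 0.379) to Hc (0.765 ± 0.336), Cd55 (0.316 ± 0.0362), Masp2 (0.304 ± 0.0493) and C4b (0.0830 ± 0.0434). With CCCP the leading members were C3ar1 (4.31 ± 0.452 RPKM) and Masp1 (2.74 ± 0.545), followed by C2 (1.01 ± 0.157), C3 (0.290 ± 0.0464), Cd55 (0.199 ± 0.0425), Cfi (0.153 ± 0.00736) and Masp2 (0.0692 ± 0.0141), with C4b (0.0153 ± 0.00610) and Hc (0.00370 ± 0.00523) last. Among untreated libraries the ranges of C3 and Cfi overlapped, as did those of Cfi, C3ar1 and Masp1 and those of Cd55 and Masp2, while with CCCP no neighbours in the order overlapped. C3 was 1.96 and 1.90 times the level of its receptor gene C3ar1 per length in the untreated libraries, and 0.0555 and 0.0808 times in the CCCP libraries. Masp1 exceeded Masp2 by 8.23 and 11.0 times per length in the untreated libraries and by 52.9 and 29.8 times in the CCCP libraries. The CCCP values rest on 10 counts of Masp2 in each library. Reads in the 52.2% of Masp2 exon bases shared with Tardbp were not counted. This lowers the RPKM of Masp2, raises these ratios and bears on its place in the order. The exon length of Cd55 in the files, 17925 bases on chromosome 1, is far above the 2533 bases of its longest coding transcript in GENCODE, which lowers its RPKM.

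C2 and C4b lie in the class III region of the major histocompatibility complex on chromosome 17 together with their relatives Cfb and C4a, and the 4 genes span 153962 bases on the minus strand. Cfb, which encodes factor B, the counterpart of C2 in the alternative route, lies 87 bases from C2. Cfb stood at 15.3 and 10.6 CPM without CCCP and at 4.74 and 4.90 CPM with it, a log2 fold change of -1.43 (SE 0.252), beside -0.53 for its neighbour C2; the difference between them was not tested. C4a had 1.50 and 1.55 CPM without CCCP and 0.659 and 1.63 CPM with it, so its groups overlapped. The counts of C4a and C4b are uncertain, since 35.2% of the 50-base stretches of the longest C4b transcript also occur in C4a and reads that align equally well to both were not counted. In the annotation used, C2, C4b, Cfb and C4a each appear on 4 sequences, chromosome 17 and alternate contigs of the same region, and Masp2 and Cd55 on 2, so levels per length were taken with the exon length on the chromosome alone. Whether the contigs were part of the genome that reads were aligned to is not given in the sources used here. Ehmt2, a broadly expressed histone methyltransferase gene of the same region that also appears on 4 sequences, had 278 to 344 CPM.

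The level of the liver-made members was set beside that of other hepatic transcripts, since the labels name no liver tissue. All 12 hepatic markers were detected in the untreated libraries, and Ahsg and Fga were at 0 in CCCP replicate 1. The 12 had summed levels of 1568 and 912 CPM without CCCP and of 6.49 and 73.4 CPM with it. All 12 were lower in both CCCP libraries than in both untreated ones, as were 24.8% of all genes tested. Their median log2 fold change was -4.87, beside -4.66 for C3, -4.72 for Cfi, -7.35 for Hc, -2.13 for Masp2 and -0.53 for C2. Between the untreated libraries all 12 markers and most members were higher in replicate 1. The level in replicate 1 over that in replicate 2 ranged from 1.08 to 2.90 over the 12 markers with a median of 1.52, and it was 1.94 for C3, 1.90 for Hc, 1.81 for Cfi, 2.17 for C4b, 1.45 for C2, 1.26 for Masp2 and 0.940 for Masp1. Other lists differed between these libraries too, with a median of 1.52 over the macrophage and 1.43 over the mesenchymal markers, of which 2 of 10 were below 1, and medians of 0.768, 0.811 and 0.502 over the endothelial, blood stem and progenitor and gut endoderm markers. C3 held 32.0 and 28.4 CPM per 1000 CPM of hepatic markers in the untreated libraries, Cfi 6.95 and 6.59, and Hc 3.56 and 3.22. C4b held 0.407 and 0.322, while C2, at 2.92 and 3.46, and Masp2, at 0.751 and 1.03, were higher in replicate 2 on this scale.

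Between the CCCP libraries 11 of the 12 markers, and C3, Cfi, C2, Masp2 and C4b, were lower in replicate 1, but the sizes differed. Alb, the gene of albumin, was counted 8 times in CCCP replicate 1 and 404 times in replicate 2, a ratio of CPM, replicate 2 over 1, of 67.6 (exact 95% interval 34.0 to 158, counting error only). Afp, the gene of the fetal albumin homologue, was 26.5-fold higher in replicate 2 (21.3 to 33.6) and Apob, the gene of a lipoprotein, 15.9-fold higher (8.36 to 34.1). C3 had a ratio of 1.26 (0.871 to 1.81), C2 of 1.25 (0.950 to 1.63), Masp2 of 1.34 (0.500 to 3.58) and Cfi of 1.07 (0.457 to 2.45). C3 therefore made up 206 per 1000 CPM of hepatic markers in CCCP replicate 1 and 22.9 in replicate 2. Of the markers, Ttr, the gene of transthyretin, had a ratio of 1.27 (0.794 to 2.03), and Hnf4a, the gene of a transcription factor, one of 0.742 (0.541 to 1.01). The part of the hepatic transcripts in the difference between the groups was not tested.

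**Figure D2:**
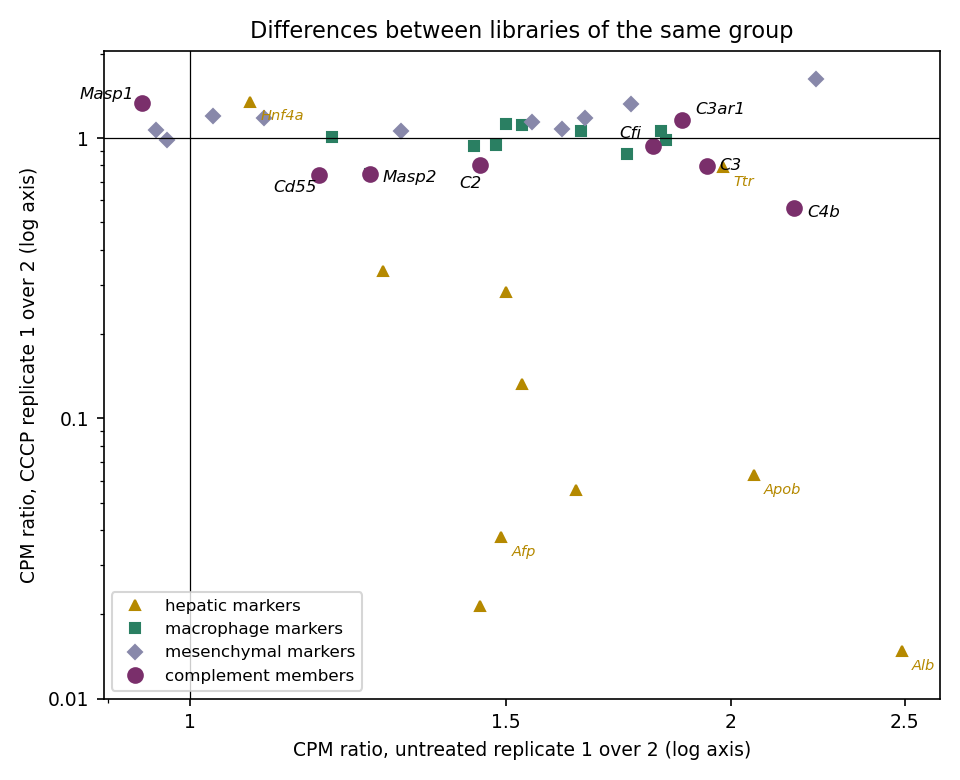
Ratio of CPM between the libraries of the same group for complement members and marker genes, untreated replicate 1 over 2 on the horizontal and CCCP replicate 1 over 2 on the vertical log axis; black lines mark equal levels, and Hc, Ahsg and Fga, with 0 counts in a CCCP library, are not drawn. C3 (1.94 and 0.796) lies beside the hepatic marker Ttr (1.98 and 0.787), while Alb (2.49 and 0.0148), Afp and Apob lie far down.

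Macrophages are a further source of complement, and C3ar1 and the C1q genes are typical of them. The 10 macrophage markers summed to 199 and 129 CPM without CCCP and to 166 and 167 CPM with it. Of these 10, 9 had overlapping groups, as did 51.2% of all genes tested. C3ar1 amounted to 106 and 86.8 CPM per 1000 CPM of these markers in the untreated libraries and to 120 and 103 with CCCP, while C1qa amounted to 124 and 136 and to 197 and 218. C3ar1 was 1.88-fold higher in untreated replicate 1 than in replicate 2. The ratios of the macrophage markers were all lower than that, from 1.20 to 1.84 with a median of 1.52. The hepatic markers had the same median. The part of macrophage number in the level of C3ar1 was not tested. C2, placed in the liver group, amounted to 22.9 and 24.4 CPM per 1000 CPM of macrophage markers without CCCP and to 14.4 and 17.8 with it. Per 1000 CPM of hepatic markers it stood at 2.92 and 3.46 without CCCP and at 368 and 40.5 with it. Masp2 went from 0.751 and 1.03 to 31.7 and 3.75 on that hepatic scale. Which cells made C2 was not tested. Masp1 did not keep to the summed mesenchymal markers between the untreated libraries, at 3.17 and 5.79 CPM per 1000 CPM of markers, and stood at 4.26 and 4.17 with CCCP. Collagen genes make up most of that sum and differed up to 2.23-fold between the untreated libraries. Over all 10 markers the level in untreated replicate 1 over replicate 2 ran from 0.958 to 2.23, with a median of 1.43. Lum, Twist1 and Dcn, at 0.958, 0.971 and 1.03, were nearest to the 0.940 of Masp1. Markers other than collagens were also higher in replicate 1, such as Pdgfra (1.66), Postn (1.55) and Pdgfrb (1.31). Between the groups Lum, Twist1 and Dcn did not overlap, with log2 fold changes of -0.46, 0.42 and -0.60, beside -0.07 for Masp1.

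**Figure D3:**
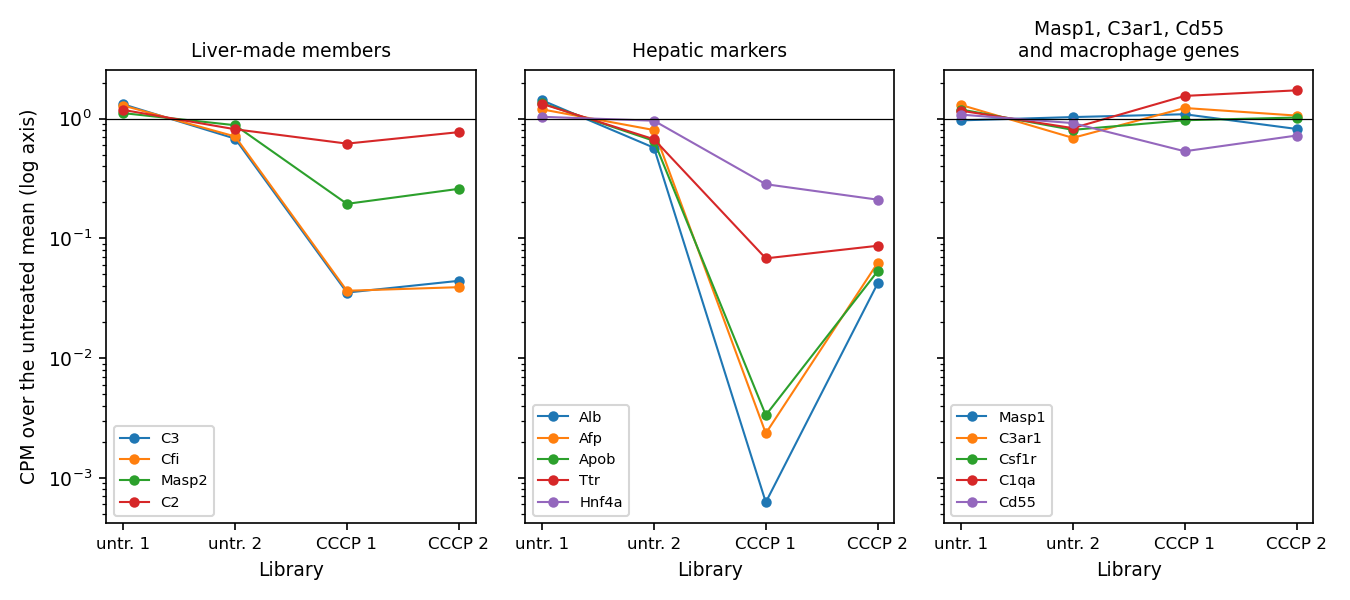
Level of single genes in each library divided by their untreated mean, on a log axis; points are libraries and lines join the values of a gene. C3 and Cfi lie at almost the same fraction in both CCCP libraries, Alb, Afp and Apob are lowest in CCCP replicate 1, and Masp1, C3ar1 and the macrophage gene Csf1r have libraries on both sides of 1, while C1qa is above 1 in both CCCP libraries.

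Beyond the members, 45 further genes of the complement system were listed by role. Of these, 33 passed the filter, 4 of them (Mbl1, C8a, C8b and Cpn2) only through the untreated libraries, and 6 had 0 counts in every library. None passed an adjusted p of 0.05 for CCCP against untreated in the quasi-likelihood test of edgeR (Benjamini-Hochberg), a count of 0 of 33 beside 0% of all genes tested. Adjusted p-values of the 33 ran from 0.144 to 0.987. At an unadjusted p under 0.05, 9 were lower and 2 higher in CCCP, where 9.16% and 5.45% of all genes tested were. The 9 include the 4 that passed the filter only through the untreated libraries and so could enter only with a higher untreated level. DESeq2 called 5 genes lower, C1s1, Cfb, Vtn, Cpn1 and Cpn2, and 0 higher, beside 2.70% and 0.297% of all genes. Of these 5, Cpn2 is among the 4 that could enter only with a higher untreated level. Without the count filter edgeR tested 39 of the 45 and called 9 lower and 2 higher, beside 2.76% and 0.673% of the genes then tested. With the replicate number as a block it called 9 lower and 2 higher of the 33, beside 6.88% and 3.80%. How many of the 4 are among the lower calls of the block fit is not given. Both CCCP libraries were below both untreated ones for 13 of the 33, those 4 included, and above for 3, beside 24.8% and 24.0% of all genes tested, and the median log2 fold change was -0.42, also with the 2 genes that had no CCCP count set at their bound. Leaving out untreated replicate 1 moved that median to -0.06, and leaving out untreated replicate 2 moved it to -0.65.

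In the classical route, the 3 chains of C1q, the recognition molecule, had higher values in both CCCP libraries than in both untreated ones, as did 24.0% of all genes tested. None of the 3 was called by DESeq2 or by edgeR with the count filter and group alone. With the replicate number as a block, edgeR called 2 of the 6 classical genes tested higher and 1 lower, beside 3.80% and 6.88% of all genes tested. C1qa had 24.6 and 17.6 CPM without CCCP and 32.7 and 36.4 CPM with it, a log2 fold change of 0.71 (adjusted p 0.241 in edgeR, 0.0580 in DESeq2). C1qb had 37.9 and 27.3 RPKM without CCCP and 49.0 and 48.6 RPKM with it, and C1qc 29.4 and 23.6 against 33.9 and 32.2 RPKM. Their log2 fold changes were 0.58 (SE 0.175) and 0.32 (SE 0.153), with adjusted p-values in edgeR of 0.264 and 0.391. C1s1, which encodes the C1s protease, went the other way, with 5.11 and 3.02 CPM without CCCP, 1.63 and 0.937 CPM with it and a log2 fold change of -1.66 (edgeR adjusted p 0.228, DESeq2 0.0334). C1s2, its relative, had 2 to 16 counts per library and a log2 fold change of -1.07 (edgeR adjusted p 0.566).

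In the lectin route, Mbl1, a mannose-binding lectin of plasma, had 20 and 16 counts without CCCP and 0 in both CCCP libraries. Taking 3 counts in each CCCP library as the floor, it was at least 5.73-fold lower (edgeR adjusted p 0.181). Mbl1 passed the filter only through the untreated libraries. The ficolin gene Fcna and the collectin gene Colec11, in contrast, had log2 fold changes of -0.58 and -0.42, with edgeR adjusted p-values of 0.561 and 0.680. Of the alternative route, Cfb was called lower by DESeq2 (adjusted p 0.000218) but not by edgeR (0.151), and Cfp, the gene of properdin, which stabilises the convertase, had overlapping groups at 10.0 and 6.57 against 8.73 and 4.93 CPM (edgeR adjusted p 0.733).

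Among terminal components, which form the lytic pore, C8a and C8b, like Hc, had few or no counts with CCCP. All of these passed the filter only through the untreated libraries. C8a had 30 and 26 counts without CCCP and 0 in both libraries with it, at least 8.96-fold lower (edgeR adjusted p 0.151). C8b had 70 and 10 counts against 0 and 3, a ratio of summed counts of 25.9 (exact 95% interval 8.54 to 128, counting error only), with an edgeR adjusted p of 0.267. The third chain of the same complex, C8g, had overlapping groups, with 3.05 and 1.95 against 2.08 and 2.84 CPM (log2 fold change -0.03, SE 0.373, edgeR adjusted p 0.977). C8g overlaps the span of Fbxw5 on the other strand, but their exons share no bases.

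Of the soluble regulators, Vtn, the gene of vitronectin, which blocks the lytic pore, had 22.7 and 20.9 CPM in the untreated and 7.12 and 9.39 CPM in the CCCP libraries, with no overlap. Its log2 fold change was -1.40 (SE 0.205; adjusted p 0.144 in edgeR, 3.88e-06 in DESeq2). Cpn1, the catalytic chain of the carboxypeptidase that trims the anaphylatoxins, had 4.85 and 4.28 against 0.865 and 1.16 CPM, a log2 fold change of -2.18 (SE 0.331; adjusted p 0.144 in edgeR, 6.15e-05 in DESeq2). Cpn2, its partner chain, had 88 and 34 against 0 and 4 counts, a ratio of summed counts of 29.6 (exact 95% interval 11.3 to 110, counting error only). Its adjusted p was 0.203 in edgeR and 0.00422 in DESeq2. Cpn2 passed the filter only through the untreated libraries, so it could enter only with a higher untreated level. Clu, the gene of clusterin, a regulator that many tissues make, had overlapping groups and a log2 fold change of 0.05 (edgeR adjusted p 0.941).

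Of the genes that passed the filter, 3 of 5 membrane regulators and 5 of 6 receptors had overlapping groups, as did 51.2% of all genes tested. Cr1l, which encodes Crry, the main C3 regulator on mouse cells, was the most abundant membrane regulator per length, with 11.0 and 13.7 RPKM without CCCP and 12.9 and 13.7 RPKM with it, and Cd59a, an inhibitor of the lytic pore, had 2.33 and 3.57 against 3.15 and 3.54 RPKM. Their edgeR adjusted p-values were 0.792 and 0.767. Csmd1 and Cd46, both with sequence repeats of the complement control type, had log2 fold changes of -1.46 (edgeR adjusted p 0.368) and -1.15 (0.278). Among receptors, Cd93, an endothelial and myeloid receptor, led at 14.5 to 19.7 RPKM with a log2 fold change of -0.25 (edgeR adjusted p 0.472). Itgb2, a chain of the complement receptors that are integrins, stood at -0.12 (0.848), its partner Itgam at -0.31 (0.810), and C5ar1, the receptor for the fragment C5a, at 0.50 (0.626), in edgeR adjusted p.

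**Figure D4:**
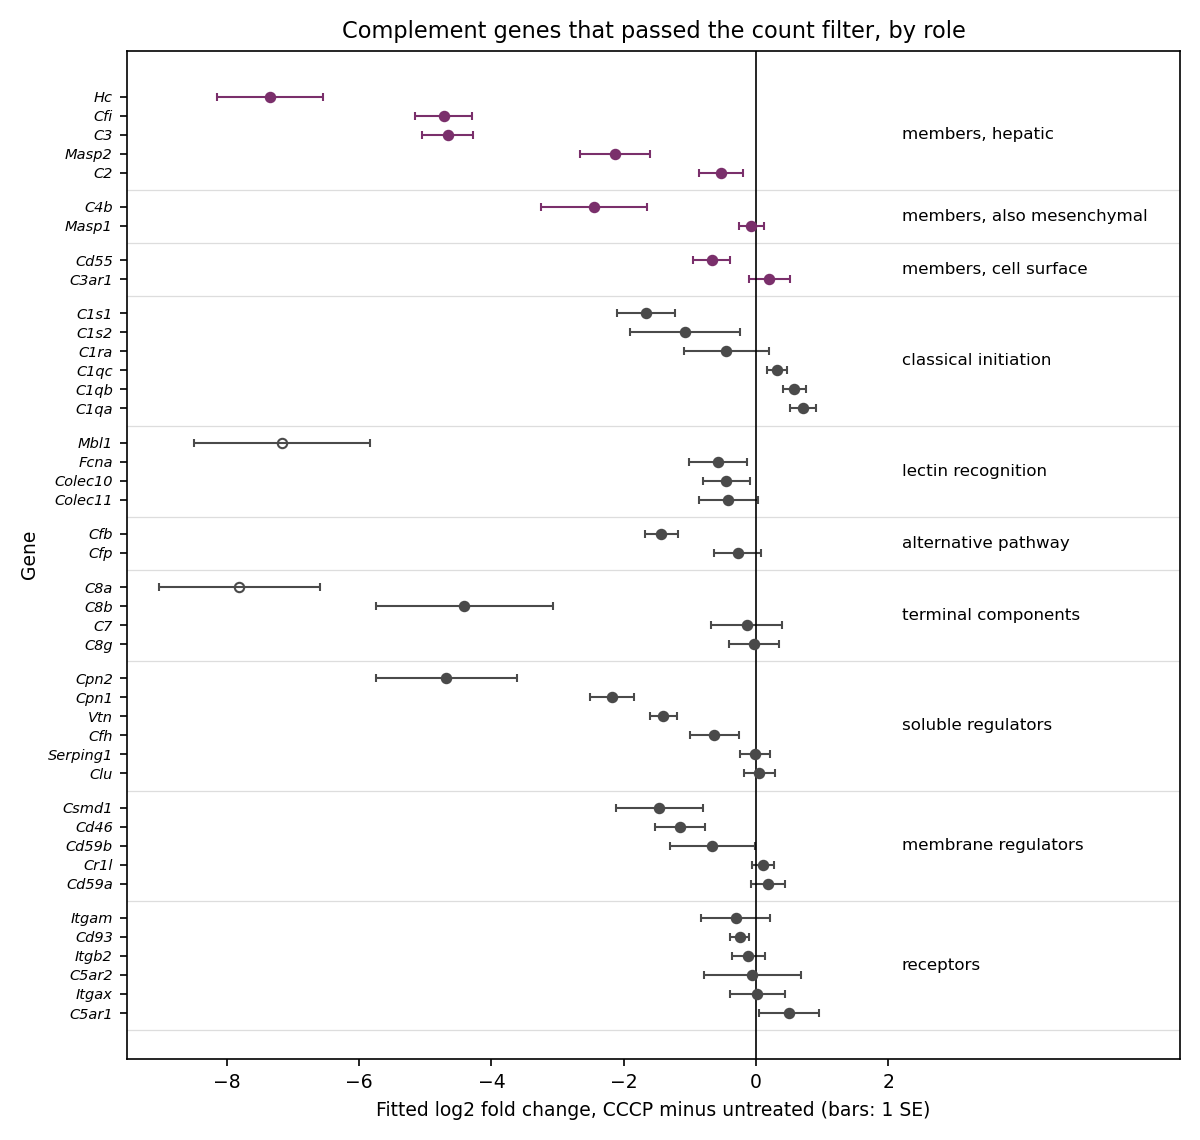
Fitted log2 fold change, CCCP minus untreated, of the 9 members (purple) and the 33 listed complement genes that passed the filter (grey), grouped by role; bars are 1 SE, and open circles mark genes with no count in either CCCP library, whose fitted value is no bound. Hc, Cfi and C3 lie between -7.35 and -4.66, and receptors between -0.31 and 0.50.

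Distances between centred log2 CPM profiles over the 4 libraries were taken to 14045 genes with a mean of at least 1 CPM. The members, the listed complement genes, all marker genes and predicted genes with Gm or Rik names were left out. Listed genes such as Cfi may therefore lie nearer to C3 than any gene named here. Of the genes compared, those most like C3 were Abcc2, Prodh2, Itih4, Spp2 and Serpinf2, at distances of 0.372, 0.628, 0.682, 0.736 and 0.760. Abcc2, the nearest of those compared, had 6.99 and 4.44 CPM without CCCP and 0.226 and 0.275 CPM with it. Those most like Masp1 were Tctn1, Kyat1, Ulk4, Mcts1 and Cplx2, at distances of 0.0191 to 0.0648, on profiles that were almost flat. Likeness over 4 libraries of 2 groups is a description only.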

How the data were processed

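Poly(A) RNA of 4 mouse AGM explant libraries, 2 untreated and 2 with CCCP, was sequenced, and groups and replicate numbers were taken from the sample titles. For untreated replicate 1, titled UN_rep1, the counts stand under a header spelled UM1, and they were assigned by the sample that the file belongs to. The deposited values are raw counts per gene. The authors obtained them with featureCounts 2.0.3 over mm10 RefSeq exons, per the file headers. Strand was not used, while the kit was directional per the labels' protocols, and in that version the options used count each read of a pair singly. Multi-mapping reads and reads touching more than 1 gene were not counted. HISAT2 and SAMtools appear in the submitters' processing notes without a version. The exon lengths that the authors deposited were used, restricted to 1 chromosome where a gene is placed on several sequences.

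Counts were tested with edgeR 4.0.16 in R 4.3.3 (glmQLFit and glmQLFTest, TMM scaling with factors of 0.966 to 1.04, filterByExpr with a minimum count of 10 and total of 15), two-sided, with Benjamini-Hochberg adjustment over 19837 genes and a threshold of 0.05. The standard error is the fold change over the square root of F. DESeq2 1.42.0 was an alternative. Both were tested on simulated data. The members and gene lists were chosen with earlier results of these data known. Every member is described, and other complement genes were named by role, as the 2 with the highest mean RPKM and the 2 with the largest fold change among those that passed the filter, beside genes called by DESeq2, C1qa, which was chosen after its values were seen, and the neighbours C4a and Ehmt2. Hepatic markers were Alb, Afp, Ttr, Apoa1, Apoa2, Apob, Ahsg, Fga, Fgb, Fgg, Hnf4a and Serpina1a. Mesenchymal markers were Pdgfra, Pdgfrb, Col1a1, Col1a2, Col3a1, Dcn, Lum, Twist1, Prrx1 and Postn. Macrophage markers were Csf1r, Adgre1, Cd68, Mrc1, Cx3cr1, Fcgr1, Lyz2, Tyrobp, Fcer1g and Spi1. Blood stem and progenitor markers were Kit, Runx1, Gfi1, Ptprc, Cd34, Procr, Itga2b, Myb, Mecom and Spn. The 8 endothelial markers (Cdh5, Pecam1, Kdr, Tek, Emcn, Erg, Tie1 and Esam) summed to 475 to 620 CPM and the 8 gut endoderm markers (Epcam, Cdx2, Sox17, Vil1, Cldn6, Foxa1, Shh and Cdh1) to 86.0 to 162 CPM. Stretches of 50 bases shared between genes were counted in GENCODE M21 transcripts. Protein sequences were not used here. An exact permutation test of 2 against 2 libraries cannot go below p = 0.333 and was not run.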

Additional observations from a re-analysis of the deposited data

How the results depend on the processing

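The number of genes called by edgeR over all genes, 0, was 594 with DESeq2, 1107 without a filter beyond 1 count and 2118 with the replicate block, and from 10 to 46 when 1 library was left out. With RLE scaling or total counts alone it was again 0. Of the 33 complement genes outside the members, DESeq2 called 5 and the replicate block 11, the fit without the filter called 11 of the 39 it tested (9 of the 11 lower in both), and each fit without 1 library, on 32 to 34 of the genes, called 0. Their median log2 fold change, -0.42, ran from -0.65 to -0.06 when 1 library was left out and from -0.47 to -0.39 under the other settings. The causes were not tested. Replicate numbers were not taken as pairs, since no label says what they mark, although deviations from the group mean correlated between libraries of 1 number (0.360 across genes).

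The count of members below both untreated libraries, 7 beside 24.8% of all genes tested, was 7 or 8 under the 6 settings tried. With 1 library left out, groups separate more easily, and the share over all genes is not given for these settings. The count follows from how the set was chosen. Over the 9 settings the log2 fold change ran from -5.03 to -4.09 for C3, -5.05 to -4.21 for Cfi, -2.34 to -1.92 for Masp2, -2.86 to -1.76 for C4b, -0.90 to -0.46 for Cd55 and -0.74 to -0.23 for C2. For Hc, with CCCP counts of 2 and 0, it ran from -10.46 to -6.59. Masp1 (-0.28 to 0.13) and C3ar1 (-0.15 to 0.73) changed sign when 1 library was left out. Counts of 20 or fewer in CCCP, summed over both libraries, limit the values of Hc, C4b and Masp2 among the members.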
